A study of Mus musculus with 18 samples.

Results

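The 6 control libraries of a mouse RNA-seq study of the thalamus were divided into replicates 1 to 3 and replicates 4 to 6, and the 2 sets were compared gene by gene. The controls are 6 of the 18 libraries, and 17916 genes passed the filter on low counts. This division is not in the labels, which number the controls 1 to 6 and give no batch, day or dissection. It was selected on the expression values of these same libraries, so every difference below between the sets is a description of the libraries and not a test of a stated question.

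All 18 libraries are labelled wild type (WT) mouse thalamus. The 6 controls received saline, the 6 libraries labelled model received an agent given only as Coll IV, and the 6 labelled intervene received Coll IV and remodelin, an inhibitor of the acetyltransferase NAT10. The series is about thalamic hemorrhage, and the controls are its uninjured arm. Poly(A) RNA was sequenced. Sources used here do not give the age, sex or strain of the mice, the time of sampling, what Coll IV stands for, or whether a library is 1 animal or a pool, so p-values measure only the spread between these libraries, which may be technical.

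The thalamus is a deep nucleus complex that relays sensory and motor signals to the cortex. Its relay neurons load glutamate into vesicles mainly with the transporter VGLUT2, encoded by Slc17a6, and keep the transcription factor Tcf7l2 into adult life, whereas neurons of the cerebral cortex and hippocampus rely on VGLUT1, encoded by Slc17a7. Astrocytes also differ by region, and those of the thalamus, hypothalamus and brainstem make far more angiotensinogen (Agt) than those of the cortex. In bulk tissue a lower value can mean fewer cells of a type or less RNA per cell, and these cannot be told apart here.

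Tcf7l2 and Agt were high in controls 1 to 3 and at a few percent of that level in controls 4 to 6, where Slc17a7 had its highest values. Levels below are TMM-scaled CPM, the reads of a gene relative to the library's total, and a difference is the log2 fold change of controls 4 to 6 minus controls 1 to 3 with its standard error (SE), n = 3 libraries a set. Tcf7l2, a transcription factor of thalamic neurons, stood at 100.4, 104 and 103 CPM in controls 1, 2 and 3 and 4.74, 3.88 and 5.08 CPM in controls 4, 5 and 6. Its 3 high libraries differed little from each other and lay far above the other 3, a 22.5-fold gap (log2 −4.50 ± 0.12). Agt was measured at 188, 379 and 259 CPM in controls 1, 2 and 3 and 6.16, 4.63 and 6.82 CPM in controls 4, 5 and 6 (log2 −5.56 ± 0.33), again with no overlap, and control 2 was highest. The library values of Slc17a7 were 126, 54.6 and 564 CPM in controls 1, 2 and 3 and 1602, 1700 and 1635 CPM in controls 4, 5 and 6. All of controls 4 to 6 lay above all of controls 1 to 3, but control 3 held several times the level of controls 1 and 2, and the difference of 2.73 ± 0.91 did not pass the threshold (edgeR adjusted p = 0.0714). It passed without control 3, at 4.19, and with all libraries kept it passed in DESeq2 (adjusted p = 0.0116), limma-voom (0.0342), limma-trend on FPKM (0.0117) and the edgeR fit of all 18 libraries (0.00689). The label's defining marker Tcf7l2 was thus low in the 3 libraries numbered 4 to 6, but it is one of the values on which the division was chosen, and the 30 relay genes described below did not all follow it.

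**Figure D1:**
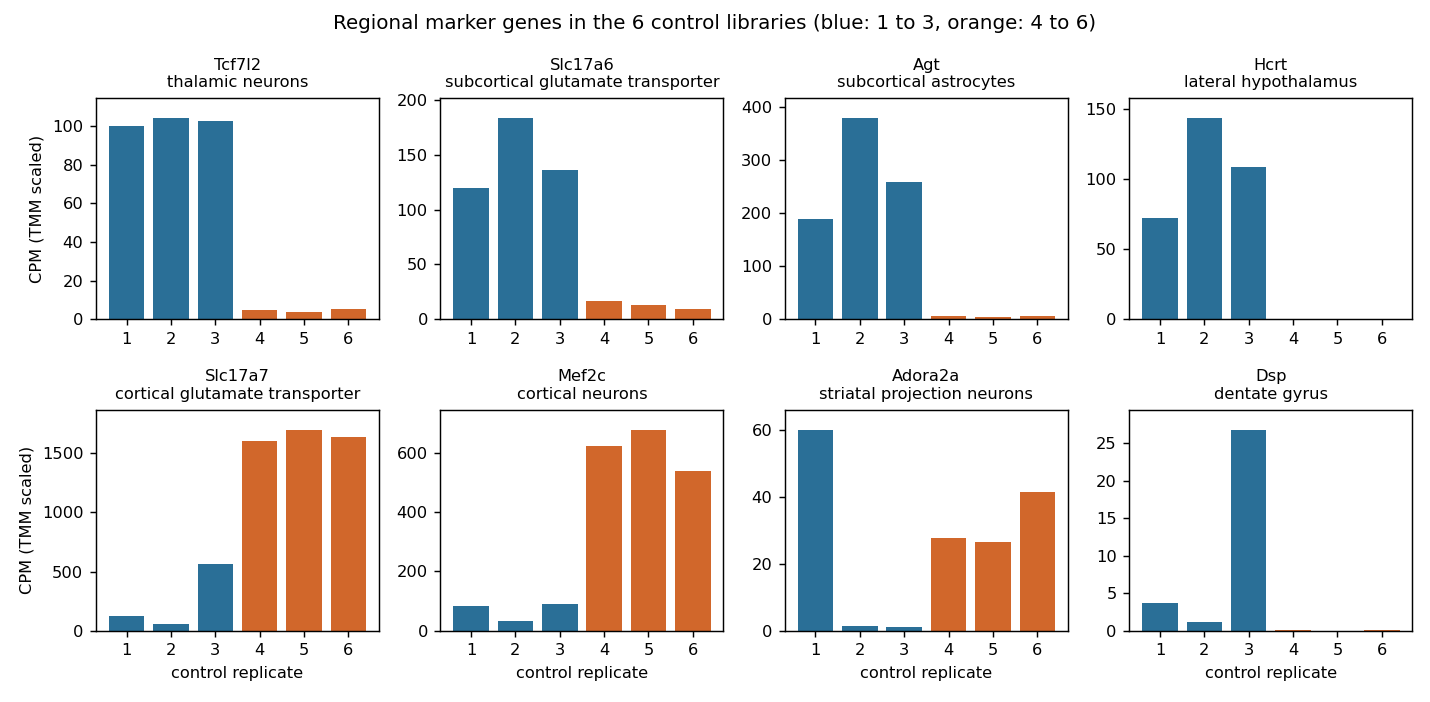
Bars show the TMM-scaled CPM of 8 regional marker genes (vertical axis, starting at 0, own scale in each panel) in each of the 6 control libraries (horizontal axis, replicate number; blue for 1 to 3, orange for 4 to 6). Tcf7l2, Slc17a6, Agt and Hcrt are high only in the blue bars, Slc17a7 and Mef2c are high in the orange bars, and Adora2a and Dsp peak in control 1 and control 3.

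Sequencing depth did not follow the division throughout, whereas the mitochondrial and haemoglobin shares did. The controls held 28481225 to 118461420 assigned counts, with control 1 the deepest and control 5 next at 56878946. Log2 CPM values correlated at 0.9726 to 0.9793 within controls 1 to 3, at 0.9849 to 0.9896 within controls 4 to 6 and at 0.9046 to 0.9461 between the sets, across genes, which are not independent replicates. No pair of libraries within a set agreed within sampling noise (chi-square per degree of freedom 11.4 to 73.7), so each was kept as its own library. Mitochondrially encoded transcripts took 12.1% to 14% of the counts in controls 1 to 3 and 7.39%, 7.7% and 11.2% in controls 4, 5 and 6, and haemoglobin transcripts 0.0241% to 0.0332% against 0.0117% to 0.0155%. Both shares therefore move with the division, and their part in the gene differences was not tested.

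Controls 1 to 3 were not alike among themselves. Among these 3, control 1 was the highest for 19 of 20 striatal genes and 13 of 16 choroid plexus genes, control 2 for 25 of 28 hypothalamic, 15 of 17 midbrain and hindbrain and 20 of 20 meningeal genes, and control 3 for 18 of 20 hippocampal and 23 of 28 pan-pallial genes. Their median coefficient of variation over 11165 genes was 9.93%, against 7.95% for controls 4 to 6. Where leaving out 1 library moves a count by more than 1.5 times, the count without it is given beside it. Of the 349 called list members, 246 were called whichever control was left out and 103 were not, and below the loss is given beside a member or in the counts of its list.

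Across all tested genes, 3024 (16.9%) were higher and 3372 (18.8%) lower in controls 4 to 6 at a Benjamini-Hochberg adjusted p of 0.05 in edgeR's quasi-likelihood test. "Higher" and "lower" are used below only for genes past that threshold. All 3 libraries of controls 4 to 6 lay above all 3 of controls 1 to 3 for 25.6% of the genes and below them for 26.9%. Since the division was selected on these values, nothing is read from these shares. Each list count below is to be set beside 16.9% higher and 18.8% lower over all genes. The median difference over all genes was −0.01. Genes lower by more than 4-fold numbered 584 and genes higher by that much 306, and beyond 16-fold the counts were 152 and 45. The higher count fell to 1812 without control 4 and to 1700 without control 5, and the lower count to 2124 and 1984.

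Of 30 genes typical of thalamic relay neurons, 18 were lower, 2 were higher (Ptpn3 and Pdp1) and 10 did not pass the threshold, with a median difference of −1.29. The number higher was 1 without control 2, 3 or 6 and 0 without control 4 or 5. Shox2, a transcription factor of thalamic and tectal neurons, was read at 26.4, 24.5 and 27.4 CPM in controls 1, 2 and 3 and 0.0649, 0 and 0.134 CPM in controls 4, 5 and 6, which is 6 reads in controls 4 to 6 together and a 395-fold lower mean. Gbx2, which sets up the thalamus in development, gave 10.1, 7.39 and 6.01 CPM in controls 1 to 3 and 0.195, 0 and 0.334 CPM in controls 4 to 6 (log2 −5.72 ± 0.74). For both genes controls 4 to 6 were at or near 0 and far from the other set. Slc17a6 gave 119.5, 184 and 136 CPM against 16.2, 12.9 and 9.42 CPM (log2 −3.51 ± 0.25), so VGLUT2 transcript was reduced but still read in each of controls 4 to 6.

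Less exclusive relay genes differed less. Ntng1, an adhesion molecule of thalamic axons that binds a ligand on their targets, stood at 56.2, 49 and 56 CPM in controls 1, 2 and 3 and 9.63, 12.4 and 9.62 CPM in controls 4, 5 and 6 (log2 −2.34 ± 0.13). Lef1, a partner of the Wnt pathway related to Tcf7l2, gave 14.9, 14 and 17.6 CPM against 3.18, 2.44 and 3.34 CPM (log2 −2.39 ± 0.17). In both cases the 2 sets were well apart and narrow within themselves. Prkcd, a protein kinase of sensory relay nuclei, fell from 86.6, 36.9 and 48.3 CPM to 9.4, 9.83 and 15 CPM (log2 −2.34 ± 0.38), with control 1 highest. Rora, an orphan nuclear receptor used by both thalamic neurons and cortical layer IV neurons, overlapped between the sets at 42.1, 35.9 and 32.9 CPM and 49.5, 44.9 and 39.7 CPM and did not pass. Over the whole list, all of controls 4 to 6 lay below all of controls 1 to 3 for 21 of 30 genes.

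Genes of the thalamic reticular nucleus and zona incerta, the inhibitory shell and neighbour of the relay nuclei, were lower for 7 of 16 and higher for 0, with a median of −0.60. Without control 1, 2 became higher. Chrna6, a nicotinic receptor subunit also found in dopamine neurons, had 12.7, 18.2 and 10.8 CPM against 0.324, 0.141 and 0.0668 CPM (log2 −6.31 ± 0.41). Lhx1, a homeobox factor, was at 2.57, 6.37 and 2.77 CPM against 0, 0.106 and 0 CPM. Both were close to 0 in controls 4 to 6. Gad1, the GABA-synthesising enzyme of inhibitory neurons everywhere, overlapped at 498, 334 and 345 CPM and 317, 335 and 265 CPM and did not pass.

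The habenula lies on the medial edge of the thalamus and sends cholinergic and glutamatergic axons to the midbrain. Of 22 habenula genes 19 were lower, 0 were higher and 3 did not pass, with a median of −2.51. Irx2, a homeobox factor, was read at 10.5, 17.4 and 15.4 CPM in controls 1 to 3 and was at 0 in all of controls 4 to 6 (2247 reads against 0), at least 564-fold lower against the limit of 3 reads over the set. Pou4f1, the homeobox factor that defines habenular neurons, had 9.83, 5.73 and 13.9 CPM against 0.195, 0.106 and 0.0668 CPM (log2 −6.32 ± 0.48). The nicotinic subunits Chrna3 and Chrnb4, which form the receptor of the habenular output, followed. Chrna3 gave 14.2, 8.31 and 17.3 CPM against 0.454, 0.918 and 0.534 CPM, and Chrnb4 6.65, 3.05 and 7.14 CPM against 0.0649, 0.247 and 0.0668 CPM. Within controls 1 to 3 control 2 was the lowest for all 3 of Pou4f1, Chrna3 and Chrnb4. The orphan receptor gene Gpr151 was uneven in the same way, with 13.1, 1.66 and 11.8 CPM against 0.973, 1.11 and 0.869 CPM, and was called only with all 6 controls or without control 2. Tac2, a tachykinin precursor, gave 55.1, 33.6 and 38.9 CPM against 8.69, 8.76 and 10.7 CPM (log2 −2.19 ± 0.20) and was still plainly detected in controls 4 to 6.

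Hypothalamic peptide and transcription factor genes stood among the lists with the largest gaps. Of 28 tested members (30 listed), 24 were lower and 1, Kiss1, higher, with a median of −5.15. Hcrt, the orexin precursor made only in the lateral hypothalamus, had 72.4, 143 and 108 CPM in controls 1, 2 and 3 and 0, 0.106 and 0.0668 CPM in controls 4, 5 and 6, that is 16313 reads against 8 and a 1880-fold lower mean (log2 −10.59 ± 0.51). Pmch, the melanin-concentrating hormone precursor of the same area, gave 64, 111 and 63.5 CPM against 0.0973, 0.053 and 0.401 CPM (433-fold lower), that is 13023 reads against 18. Controls 1 to 3 all held these transcripts, and controls 4 to 6 were near 0.

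The neurohypophysial hormone genes were uneven within controls 1 to 3. Oxt (oxytocin) was read at 41, 347 and 70.1 CPM in controls 1 to 3 and 0.0324, 0.141 and 0.334 CPM in controls 4 to 6. Avp (vasopressin) was read at 67.4, 315 and 103 CPM and 0.195, 0.247 and 0.301 CPM. Control 2 held several times the level of controls 1 and 3 for both, with no overlap between the sets. Pomc, the precursor of the melanocortins in the arcuate nucleus, reached 3.23, 64.8 and 32.4 CPM and 1.95, 1.73 and 2.67 CPM (log2 −3.99 ± 1.15), and control 1 was hardly above the other set. Leaving out any control but control 1 ended its call. The homeobox genes Hmx2 and Hmx3 were at 0 in all of controls 4 to 6, at least 42.6-fold and 108-fold lower. Kiss1, the kisspeptin precursor, ran the other way at a low level, 0.308, 1.08 and 0.437 CPM against 1.3, 1.47 and 2.71 CPM, and was called only with all 6 controls or without control 2. Crh, Pdyn and Agrp did not pass. Dlk1 and Peg10, imprinted genes abundant in hypothalamic neurons, gave 132, 251 and 126 CPM against 1.3, 1.41 and 3.88 CPM and 149, 226 and 129.5 CPM against 15.6, 14.9 and 14.7 CPM.

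Midbrain and hindbrain genes showed the lowest median of the 36 lists, −6.63 over 17 tested members of 26, with 15 lower and 0 higher. Slc6a3, the dopamine transporter, was read at 62.8, 105 and 58.3 CPM in controls 1, 2 and 3 and 0.13, 0.141 and 0.2 CPM in controls 4, 5 and 6 (480-fold lower, log2 −8.91 ± 0.37). Th, the rate-limiting enzyme of dopamine synthesis, had 103, 139 and 85 CPM against 3.73, 5.49 and 3.37 CPM (log2 −4.68 ± 0.27). Control 2 was highest for both and the sets did not overlap. The developmental factor Gata3 was at 0 in all of controls 4 to 6 against 3.77, 11.4 and 7.76 CPM in controls 1, 2 and 3, at least 299-fold lower. Serotonin neuron genes sat mainly in 1 library. Tph2, which makes serotonin in the raphe, was at 0.85, 33.1 and 5.03 CPM against 1.78, 0.953 and 1.74 CPM, so control 2 alone stood out, and the difference did not pass. Slc6a4, the serotonin transporter, was at 0.1, 15.2 and 1.75 CPM against 0.0649, 0.0353 and 0 CPM and fell under the filter. Of 18 cerebellar, pituitary and pineal genes 7 were tested, 4 of them lower (2 without control 4 or control 5).

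**Figure D2:**
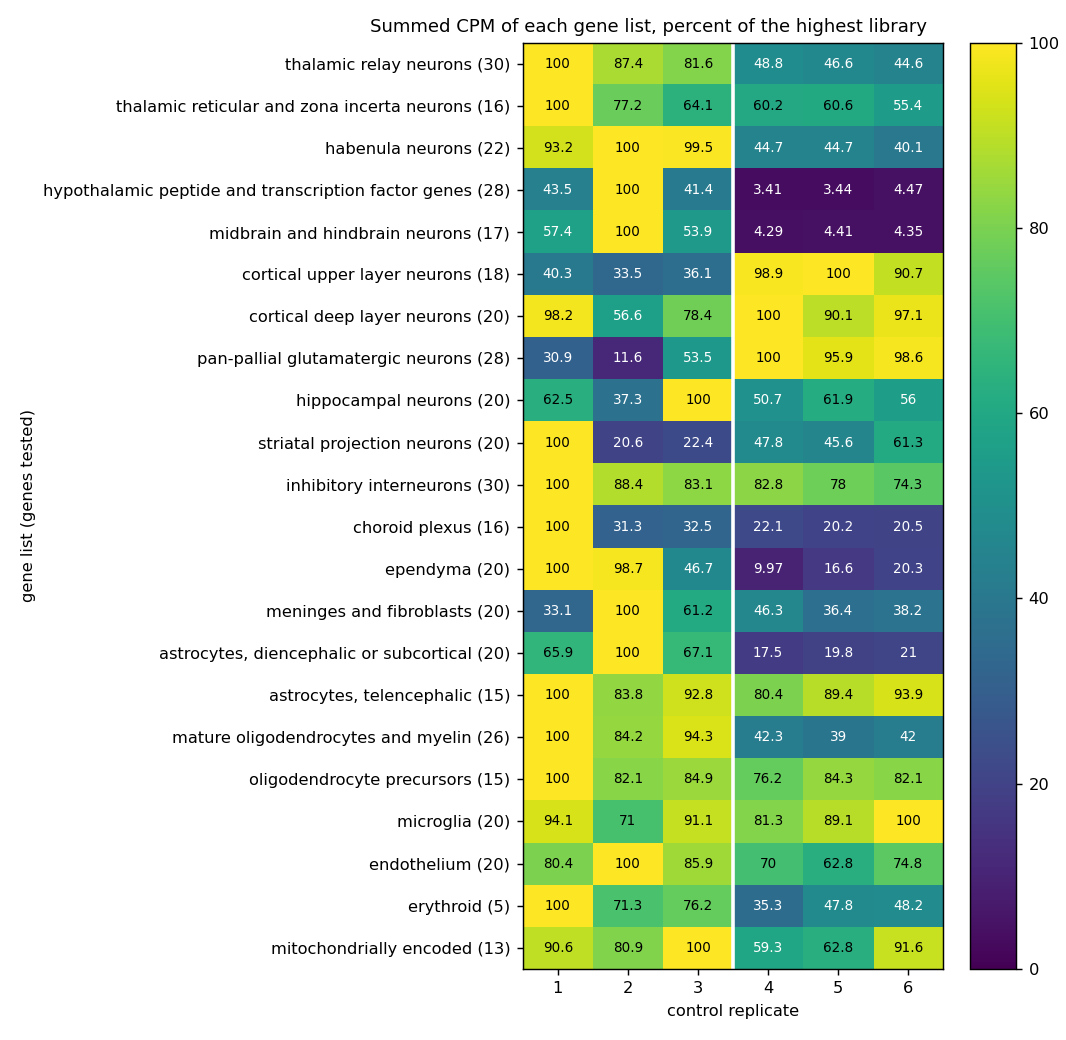
Each cell gives the summed CPM of a gene list (vertical axis, with its number of tested genes) in 1 control library (horizontal axis, replicate number) as a percent of the library where that list is highest, so a few abundant genes can dominate a row. Hypothalamic genes read 43.5, 100 and 41.4 in controls 1 to 3 and 3.41 to 4.47 in controls 4 to 6, and pan-pallial genes read 30.9, 11.6 and 53.5 against 95.9 to 100.

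Cortical genes ran the other way, though less uniformly. Of 18 upper layer genes 9 were higher and 2 lower, and of 20 deep layer genes 7 were higher and 2 lower, with medians of 0.52 and 0.43. The upper layer count of lower genes was 4 without control 3 and 1 without control 4, 5 or 6. The deep layer count of higher genes was 4 without control 1, control 4 or control 5. Mef2c, an activity-regulated factor of cortical neurons, was at 83.1, 33.4 and 88.8 CPM in controls 1, 2 and 3 and 623, 678 and 538 CPM in controls 4, 5 and 6 (log2 3.16 ± 0.39). Each of controls 4 to 6 was far above each of controls 1 to 3. Lamp5, a membrane protein of upper layer and neurogliaform cells, gave 75.1, 30.1 and 52 CPM against 402, 323 and 311 CPM (log2 2.72 ± 0.34). Cux2, a homeobox factor of layers II to IV, differed less, 24, 26.2 and 22 CPM against 72, 83.2 and 63.1 CPM (log2 1.60 ± 0.12), with both sets tight.

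Deep layer genes did not all go the same way. Tbr1, a T-box factor of corticothalamic neurons, had 16, 5.05 and 26.2 CPM against 180.2, 176 and 136 CPM (10.4-fold higher, log2 3.38 ± 0.61), and was not called without control 1 (edgeR adjusted p = 0.0518). Fezf2, which specifies subcerebral projection neurons, was at 6.05, 2.09 and 21.5 CPM against 49.3, 54.7 and 40.4 CPM, without overlap but short of the threshold. Cplx3 and Ccn2, markers of layer VIb subplate cells, had 8.67, 4.56 and 6.05 CPM against 39, 23.6 and 22.2 CPM and 9.47, 11.8 and 10.3 CPM against 44.3, 29.4 and 21.9 CPM, and control 4 was highest for both. Foxp2, shared by corticothalamic and thalamic neurons and counted in both lists, was lower, 37.6, 32.5 and 30 CPM against 19.2, 17.8 and 18.7 CPM (log2 −0.85 ± 0.11). Bcl11b (Ctip2), shared by layer V and striatal neurons, overlapped at 78.8, 13.7 and 78.2 CPM and 69.7, 69.7 and 68.4 CPM, with control 2 far below the other 5.

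Genes of all pallial glutamatergic neurons, which cortex and hippocampus share, had a median of 1.35, with 9 of 28 higher and 0 lower. All of controls 4 to 6 lay above all of controls 1 to 3 for 20 of 28. The higher count was 15 without control 2 and 19 without control 3, and 5 without control 4 or control 5. With all libraries kept it was 15 in DESeq2, 14 in limma-voom, 16 in limma-trend, 16 in the edgeR fit of all 18 libraries and 5 without the filter on low counts. Stx1a, a syntaxin of the vesicle fusion complex, had the narrowest sets, 47.5, 41.6 and 66.3 CPM in controls 1, 2 and 3 and 362, 366 and 358 CPM in controls 4, 5 and 6 (6.99-fold higher, log2 2.81 ± 0.17). Camk2a, the kinase of excitatory synapses, was at 832, 301 and 1566 CPM against 2786, 3040 and 2828 CPM and did not pass. Emx1, the homeobox factor of the dorsal pallium, was at 1.86, 0.647 and 10.3 CPM against 28.3, 24.8 and 29.7 CPM and did not pass either. For both the sets did not overlap, control 2 was the lowest of all 6 libraries, and control 3 was the highest of its set.

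Several hippocampal and striatal genes stood out in single libraries. Of 20 hippocampal genes 7 were lower and 0 higher (2 lower without control 4 or control 5, 3 without control 6, and 3 higher without control 3). The lower count was 3 in limma-voom or without the filter on low counts and 4 in limma-trend. Dsp, a desmosomal gene of dentate granule cells, was at 3.73, 1.11 and 26.8 CPM in controls 1, 2 and 3 and 0.0649, 0 and 0.134 CPM in controls 4, 5 and 6 (not called without control 1, 4, 5 or 6). C1ql2, a synaptic organiser of mossy fibres, was at 18.2, 21.6 and 63.9 CPM against 0.259, 0.565 and 0.802 CPM, and Prox1, the factor that fixes granule cell identity, at 26.8, 19.4 and 59.3 CPM against 7.85, 7.93 and 8.12 CPM (not called without control 4 or 5). Control 3 was the highest for all 3. Neurod6, a pallial bHLH factor, had 9, 3.45 and 101 CPM against 85.3, 84.8 and 70.9 CPM, so control 3 reached the level of controls 4 to 6 while controls 1 and 2 did not.

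Striatal projection neuron genes had a median of 0.15, with 0 of 20 higher and 2 lower (Isl1 and Six3), and without control 1 the number higher was 13. Adora2a, the adenosine receptor of indirect pathway neurons, was at 60, 1.35 and 1.17 CPM in controls 1, 2 and 3 and 27.8, 26.4 and 41.3 CPM in controls 4, 5 and 6. Drd1, the dopamine receptor of direct pathway neurons, was at 41.8, 3.26 and 3.02 CPM and 16.2, 15.4 and 23.2 CPM. Control 1 was the highest of all 6 for both, controls 2 and 3 were near the bottom, and controls 4 to 6 lay between. Ppp1r1b, which encodes the phosphatase inhibitor DARPP-32, repeated this order at 590, 42.3 and 67.3 CPM and 320.3, 295 and 428 CPM. Penk, the enkephalin precursor, had 725, 132 and 98.2 CPM and 188, 165 and 312 CPM (log2 −0.53 ± 0.85), and without control 1 its difference turned to 0.945, still short of the threshold.

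Of 30 inhibitory interneuron genes 6 were higher and 8 lower (5 and 5 without control 5), shares not far from the 16.9% and 18.8% over all genes. Vip, the peptide of a cortical interneuron class, was at 4.77, 19.3 and 10.9 CPM against 67.5, 59.4 and 43.6 CPM (log2 2.31 ± 0.53), and was not called without control 3, 4 or 5. Npy, found in several cortical classes, was at 65.9, 46.2 and 76.7 CPM against 167, 138 and 158 CPM (log2 1.29 ± 0.18). Gad2 was lower, 354, 196 and 142 CPM against 103, 111 and 104 CPM, and so was the calcium buffer gene Pvalb, 187, 205 and 213 CPM against 161, 106 and 105 CPM. Gad2 was not called without control 2, 4, 5 or 6, nor Pvalb without control 5 or 6. Calb2, which encodes calretinin and is counted in 3 lists because midline thalamus, habenula and interneurons all use it, was at 319, 472 and 328 CPM against 11.8, 32.3 and 22.1 CPM (16.9-fold lower). Sst, the somatostatin gene, did not pass and overlapped at 306, 293 and 333 CPM and 310.3, 293 and 368 CPM.

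**Figure D3:**
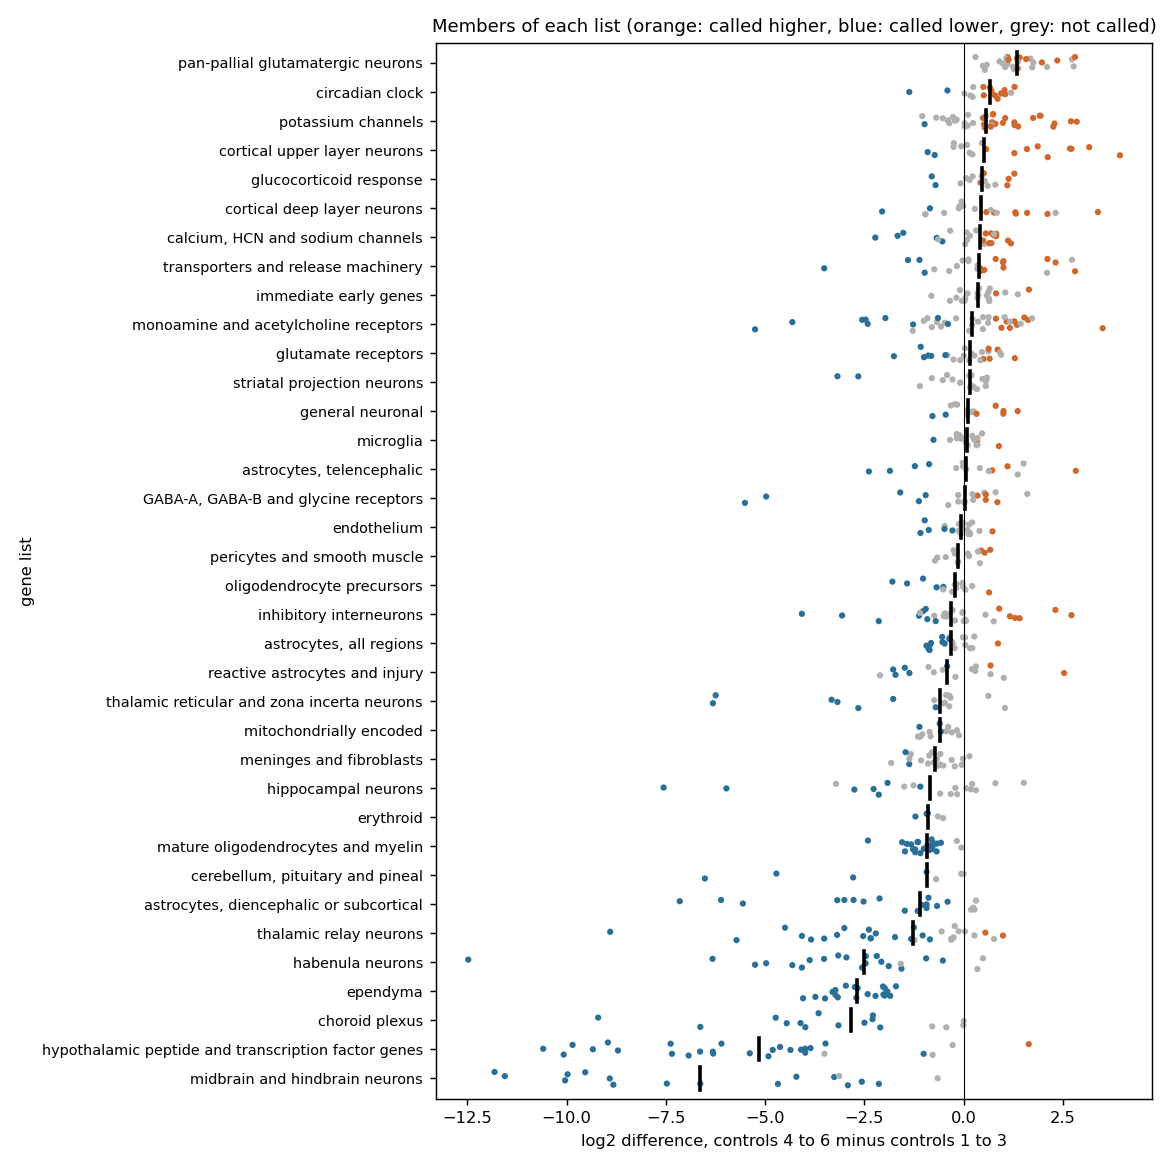
Each point is 1 tested gene of a list (vertical axis), placed at its log2 difference of controls 4 to 6 minus controls 1 to 3 (horizontal axis), orange when called higher, blue when called lower and grey otherwise, and the black bar is the list's median. Medians run from −6.63 for midbrain and hindbrain genes to 1.35 for pan-pallial genes, against −0.01 over all 17916 genes.

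Genes typical of cells that line the ventricles mostly had their larger values in controls 1 to 3. All 20 ependymal genes were lower and 0 higher, with a median of −2.69 (12 lower without the filter on low counts). Foxj1, the master factor of motile cilia, was at 35.1, 28.6 and 16.2 CPM against 5.51, 6.09 and 8.09 CPM (log2 −2.03 ± 0.30), and the cilium gene Ccdc153 was at 19.1, 17.9 and 8.56 CPM against 0.13, 2.24 and 2.14 CPM (not called without control 1, 2, 5 or 6). Control 3 was the lowest of its set for both and still above controls 4 to 6. Of 16 tested choroid plexus genes (18 listed), 12 were lower and 0 higher, and 6 were lower without control 4 or control 5 and 7 in limma-trend, in the edgeR fit of all 18 libraries or without the filter on low counts. Ttr, the thyroid hormone carrier that dominates choroid plexus RNA, was at 699.9, 24 and 71.2 CPM in controls 1, 2 and 3 and 0.259, 0.6 and 0.401 CPM in controls 4, 5 and 6 (log2 −9.21 ± 1.88). Its call was lost without control 4 (edgeR adjusted p = 0.0636) or control 5 (0.0684), without the filter on low counts (0.0527) and in limma-voom (0.207), and without control 1 the difference was −6.72. Control 1 held most of it, and the other controls of its set were still far above controls 4 to 6. Meningeal genes gave 2 of 20 lower (Dcn and Igf2) and 0 higher, against 18.8% lower and 16.9% higher over all genes. The lower count was 12 without control 1, 1 without control 3 or control 4, and 0 without control 5 or control 6, and 6 in DESeq2.

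Genes of subcortical astrocytes were mostly lower. Of 20 genes enriched in diencephalic or other subcortical astrocytes 16 were lower and 0 higher, with a median of −1.11. Slc6a11, the GABA transporter GAT-3, was at 404, 554 and 359 CPM in controls 1, 2 and 3 and 93.2, 106 and 104 CPM in controls 4, 5 and 6 (log2 −2.12 ± 0.17). Sparc, a secreted matrix protein, was at 1032, 1833 and 1028 CPM against 179.5, 192 and 199 CPM (log2 −2.77 ± 0.24). Irx3, a homeobox factor of caudal forebrain and hindbrain, was at 5.15, 9.76 and 7.22 CPM against 0, 0.106 and 0 CPM. None of the 3 overlapped between the sets. Of 15 tested telencephalic astrocyte genes 3 were higher and 4 lower (5 higher without control 2 or control 3), with a median of 0.06, not far from the shares over all genes. Chrdl1, a secreted BMP antagonist of upper layer cortical astrocytes, was at 4.08, 1.66 and 2.7 CPM against 17.4, 22.1 and 22.4 CPM (log2 2.83 ± 0.30).

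Of 20 astrocyte genes used in all regions 9 were lower and 1 higher (2 higher without control 2), with a median of −0.32. The higher gene was Slc1a2, the glutamate transporter GLT-1, at 1162, 745 and 1030 CPM against 1785, 1878 and 1684 CPM (log2 0.86 ± 0.16). Aqp4, the water channel of astrocyte endfeet, was lower at 129.8, 148 and 156 CPM against 66.9, 78 and 82.2 CPM (log2 −0.93 ± 0.11). Gfap, the intermediate filament of fibrous and reactive astrocytes, was lower at 244, 387 and 498 CPM against 126, 168 and 110.1 CPM (log2 −1.48 ± 0.29). Controls 4 to 6 were apart from controls 1 to 3 for each of these genes.

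Myelin genes were lower almost as a block. Of 26 genes of mature oligodendrocytes 24 were lower and 0 higher, with a median of −0.91, and the lower count stayed at 23 or 24 whichever control was left out. Mbp, which compacts the myelin membrane, was at 9538, 7564 and 9291 CPM in controls 1, 2 and 3 and 3845, 3424 and 4061 CPM in controls 4, 5 and 6 (log2 −1.22 ± 0.13), and Mobp at 3916, 3099 and 3438 CPM against 1396, 1201 and 1283 CPM (log2 −1.43 ± 0.12). The 3 libraries of each set were close to each other for these genes. Precursor genes differed less, with 5 of 15 lower and 1 higher, and Pdgfra, the growth factor receptor of precursors, overlapped at 38.5, 31.4 and 29.2 CPM and 33.3, 36 and 33 CPM and did not pass.

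Immune and vascular genes had medians between −0.14 and 0.08. Over all genes 16.9% were higher and 18.8% lower, and the list counts in this paragraph are given only as a description. Microglial genes gave 2 of 20 higher (1 without control 2 and 0 without control 3, 4, 5 or 6) and 1 lower. Endothelial genes gave 1 of 20 higher (2 without control 2) and 5 lower (2 without control 4 or control 5). Pericyte and smooth muscle genes gave 3 of 15 higher and 0 lower, with 0 higher without control 1, 2 or 4 and 1 without control 5 or 6. Of 5 tested erythroid genes 3 were lower, with a median of −0.90, namely Hbb-bs and the near-identical pair Hba-a1 and Hba-a2, whose reads may be split between them. Of 13 mitochondrially encoded genes 3 were lower, 7 without control 6, 6 in DESeq2, 1 without control 1 and 0 without control 4, without control 5 or without the filter on low counts. Control 6 was the one of its set nearest to controls 1 to 3 in mitochondrial share.

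Some families of synaptic release genes had members going opposite ways, and others did not. Of 24 transporter and release genes 10 were higher and 4 lower, with a median of 0.39. Vamp1, the synaptobrevin of brainstem and fast subcortical terminals, was lower at 281, 373 and 357 CPM against 198, 143 and 127 CPM (log2 −1.11 ± 0.18). Vamp2, the forebrain form, was higher at 1069, 929 and 1138 CPM against 1376, 1406 and 1412 CPM (log2 0.42 ± 0.10, not called without control 4 or 5). The same held for calcium sensors. Syt2, the sensor of fast caudal synapses, was lower at 53.7, 79.6 and 71.6 CPM against 41.5, 31.8 and 30.5 CPM (log2 −0.98 ± 0.17), and Syt1, the forebrain sensor, was higher at 730.5, 583 and 821 CPM against 1442, 1476 and 1357 CPM (log2 1.00 ± 0.13). Of the vesicle glycoproteins, Sv2c was lower at 74.1, 63.7 and 44.2 CPM against 22.9, 23.2 and 22.9 CPM and Sv2b was higher at 80.2, 64.5 and 137 CPM against 438, 549 and 416 CPM. None of these 6 genes overlapped between the sets. The complexin genes Cplx1, Cplx2 and Cplx3 were all higher (log2 0.44, 0.99 and 2.11), and Syt5 was higher like Syt1 (log2 0.52). Cplx1 was not called without control 4 or 5, nor Cplx2 without control 1, 4, 5 or 6.

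Levels can be compared between the members of a pair only per length, for which the deposited FPKM values were used as set means. Slc17a7 averaged 41.3 FPKM in controls 1 to 3 and 278 FPKM in controls 4 to 6, and Slc17a6 averaged 16.5 and 1.42 FPKM. Vamp2 was the more abundant synaptobrevin in both sets, with 242 FPKM against 53.8 FPKM of Vamp1 in controls 1 to 3 and 320.5 FPKM against 24.6 FPKM in controls 4 to 6. Likewise Syt1 was above Syt2 in both sets, at 65.5 against 3.75 FPKM and at 130 against 1.87 FPKM. The Vamp and Syt pairs thus kept their order in the set means, while the ratio between the members widened. The mean of Slc17a7 in controls 1 to 3 rests mainly on control 3, so no order is read for the Slc17a pair in that set.

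**Figure D4:**
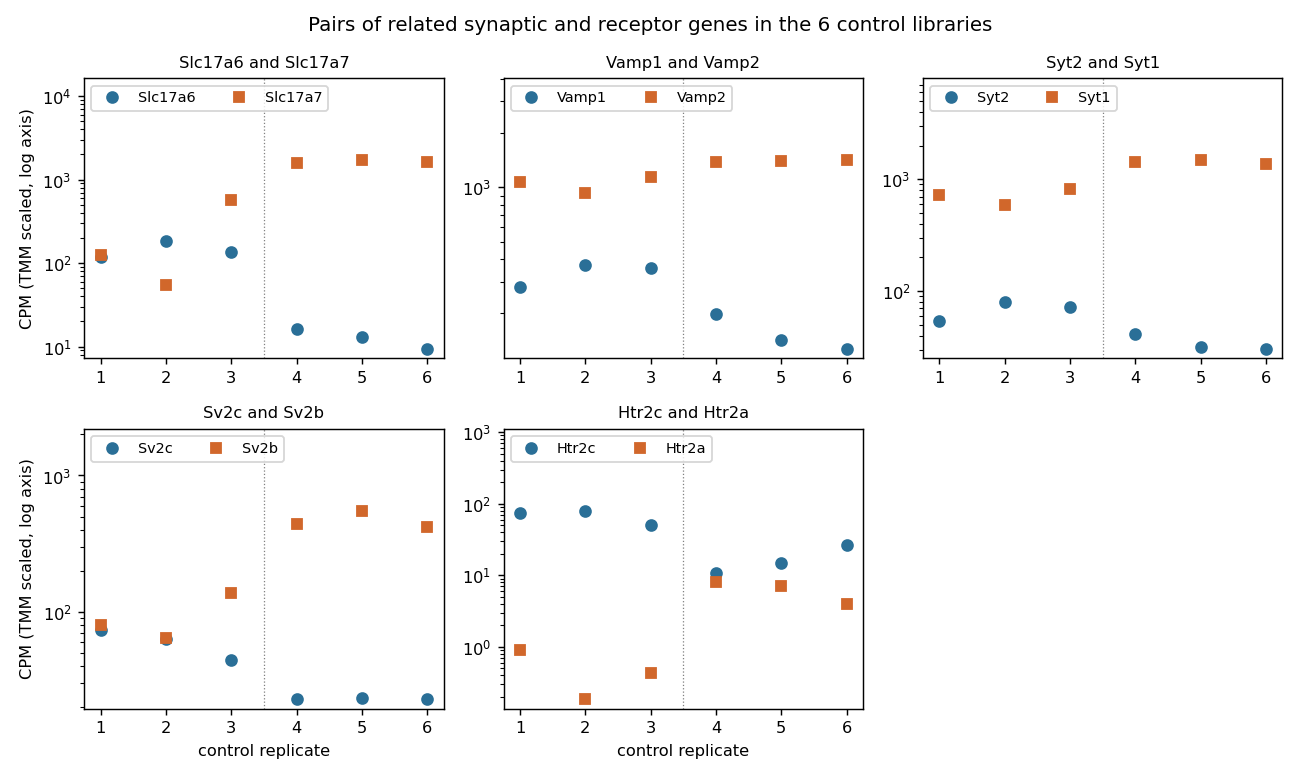
Each panel plots the TMM-scaled CPM (vertical log axis) of a pair of related genes in the 6 control libraries (horizontal axis, replicate number), circles for the member that was lower in controls 4 to 6 and squares for the other member, with a dotted line between the sets. Sv2b reads 80.2, 64.5 and 137 CPM left of the line and 416 to 549 CPM right of it, while Sv2c lies between 44.2 and 74.1 CPM on the left and between 22.9 and 23.2 CPM on the right.

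Ion channel genes were more often higher than lower. Of 39 potassium channel genes 19 were higher and 1 lower (Kcnip1), with a median of 0.56. The higher count was 12 without control 1 or without the filter on low counts and 10 without control 4 or control 5, and the lower count was 2 without control 1 or control 5 and 3 without control 3. Kcnv1, a silent subunit of cortical neurons, was at 19, 7.11 and 20.2 CPM against 121, 104 and 109 CPM (log2 2.85 ± 0.40). Kcnh7, of the ERG family, was at 12.3, 10.4 and 16.4 CPM against 75, 63.5 and 48 CPM (log2 2.26 ± 0.22). Both had clearly separate sets. Of 24 calcium, HCN and sodium channel genes 10 were higher (5 without control 4, 6 without control 5) and 5 lower. Hcn4, the pacemaker channel of thalamic neurons, was lower at 11.4, 11.5 and 10.3 CPM against 1.69, 2.93 and 2.4 CPM (log2 −2.23 ± 0.21). Cacna1g, the T-type channel that gives thalamic bursts, overlapped at 34.4, 45.7 and 33.3 CPM and 39.7, 44.7 and 34.6 CPM and did not pass.

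Receptor lists had calls in both directions, at shares not far from the 16.9% higher and 18.8% lower over all genes. Glutamate receptor genes gave 5 of 24 higher and 6 lower, among them Gria3 at 65.8, 47 and 71.5 CPM against 152, 161 and 138 CPM (log2 1.29 ± 0.15) and Grin2d, an NMDA receptor subunit of diencephalon and brainstem, at 26.4, 31.7 and 26.5 CPM against 8.4, 9.04 and 7.52 CPM (log2 −1.76 ± 0.13). GABA and glycine receptor genes gave 4 of 19 higher (2 without control 4 or control 5, 7 in DESeq2) and 5 lower. Gabrq, the theta subunit found in hypothalamic and monoamine neurons, was at 18.9, 50.6 and 19.9 CPM against 0.519, 0.777 and 0.601 CPM (log2 −5.51 ± 0.54), highest in control 2. Monoamine and acetylcholine receptor genes gave 9 of 38 higher and 9 lower. Htr2a, the serotonin receptor of cortical pyramidal neurons, was at 0.892, 0.185 and 0.437 CPM against 8.11, 7.17 and 3.94 CPM (log2 3.50 ± 0.52). Htr2c, the form of choroid plexus and subcortical neurons, was at 74.8, 79.1 and 51.1 CPM against 10.8, 14.9 and 26.8 CPM (log2 −1.97 ± 0.37). The serotonin receptor pair thus ran in opposite directions with no overlap.

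Circadian clock genes had the highest share of higher calls among the 36 lists, a ranking that did not hold in every alternative. Without control 1 the striatal share was above it (13 of 20 against 9 of 17). The pan-pallial share was above it without control 2 (15 of 28 against 7 of 17) and without control 3 (19 of 28 against 10 of 17). Without the filter on low counts the upper layer share was above it (10 of 18 against 8 of 17). The clock turns on BMAL1 and CLOCK, which bind E-boxes and switch on their own repressors, and the PAR bZIP factors Dbp, Tef and Hlf are among its outputs. Of 17 genes 10 were higher, 2 lower and 5 did not pass, with a median of 0.66. Hlf was at 134, 104 and 124 CPM against 329, 299.6 and 254 CPM (log2 1.28 ± 0.13). Tef was at 183, 169.9 and 174 CPM against 310.2, 383 and 319.9 CPM (log2 0.94 ± 0.11), and Dbp at 46, 33.9 and 23.8 CPM against 62.8, 64.9 and 85.1 CPM (log2 1.03 ± 0.24, not called without control 2 or 6). Controls 4 to 6 were above controls 1 to 3 for all 3. Of the repressors, Ciart was at 11.7, 9.55 and 8.6 CPM against 23.1, 20.6 and 18.3 CPM and Per1 at 43, 35.1 and 41.2 CPM against 59.9, 56.4 and 53.5 CPM, both higher, while Per2 and Cry1 did not pass. The positive arm was mixed, with Bmal1 higher (log2 0.50 ± 0.16, called only with all 6 controls or without control 3) and Clock and Npas2 not past the threshold. The time of day of sampling was not stated, so it cannot be told apart from the regional difference.

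The canonical E-box CACGTG, which reads the same on both strands, was looked for in the 250 bases before the start of each gene in RefSeq promoter sequences (build GRCm38.p6, while the counts were made on GRCm39). It occurred in 6.86% of 27025 genes, in 10.1% of the 2278 matched higher genes, in 7.92% of the 2590 matched lower genes, and in 5 of the 13 matched clock genes. The 6.86% covers genes tested here or not, and no share was taken over the tested genes alone. Nothing is therefore read from the gap between these shares. The windows of those 5 are shown because they carry the element through which the clock is known to act, with the E-box in capitals. A match is a description of the letters and not a bound site.
Ciart chr3:95882329-95882354 (−): catctagagtCACGTGttgccggtaa
Ciart chr3:95882271-95882296 (−): cagggggaggCACGTGcagaaccgca
Ciart chr3:95882257-95882282 (−): tgcagaaccgCACGTGtctgggaggg
Per1 chr11:69098773-69098798 (+): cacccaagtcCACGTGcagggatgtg
Tef chr15:81802536-81802561 (+): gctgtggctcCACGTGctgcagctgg
Tef chr15:81811266-81811291 (+): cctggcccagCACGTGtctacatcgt
Bhlhe41 chr6:145865558-145865583 (−): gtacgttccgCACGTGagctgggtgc
Cry1 chr10:85185099-85185124 (−): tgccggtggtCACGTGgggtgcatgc
Ciart carried 3 copies, of which the last 2 windows overlap, and the 2 Tef windows belong to separate start sites. Ciart, Per1 and Tef were higher, Bhlhe41 was lower and Cry1 did not pass, so the element was found beside all 3 outcomes.

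Glucocorticoid-responsive genes gave 5 of 15 higher (3 without control 4) and 2 lower. Over all genes 16.9% were higher and 18.8% lower, and nothing is read from the counts of the lists in this paragraph. Fkbp5, the chaperone that dampens the receptor, was at 40, 24.2 and 42.9 CPM against 84.1, 94.1 and 81.8 CPM (log2 1.28 ± 0.20). Klf9 was at 173, 77.7 and 169.6 CPM against 342, 342 and 238 CPM, and was also higher (not called without control 1, 3, 4 or 5). The metallothionein Mt1 was lower at 791, 707 and 882 CPM against 423, 423 and 519 CPM (log2 −0.80 ± 0.12), and Sgk1 and Tsc22d3 did not pass. Immediate early genes gave 2 of 21 higher (Dusp1 and Homer1) and 0 lower, with 6 higher without control 3, 1 without control 4 or control 6, and 0 without control 5. Control 3 was the highest of its set for 19 of these 21. Reactive and injury genes gave 2 of 17 higher and 5 lower, with 4 higher and 3 lower without control 2, 2 lower without control 4 or control 6, 3 lower without control 5, and 1 higher without control 3, 5 or 6.

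Outside the lists, the higher genes of largest difference were often of low level in controls 1 to 3. Ovol2, a zinc finger factor, was at 0.517, 0.246 and 1.31 CPM in controls 1, 2 and 3 and 21.9, 18.4 and 15.2 CPM in controls 4, 5 and 6 (log2 4.85 ± 0.48). Smim43, a small membrane protein gene, was at 2.51, 1.05 and 5.61 CPM against 93.1, 71.9 and 62 CPM (log2 4.68 ± 0.58). Both were lowest in control 2 and far higher in all of controls 4 to 6. Igfn1, Tcap, Myh3 and Klhl40, better known from muscle, and the keratin gene Krt12 were also among the 15 largest. On the lower side, 12 of the 15 genes of largest difference belonged to the hypothalamic, midbrain, habenular, choroid plexus, thalamic or hippocampal lists, and the other 3 were Lhx1os, Calcr and C1ql4. The lists were chosen with earlier results of these data known, so nothing is read from this overlap.

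The same division by replicate number was then read in the other groups, to see whether it was alike there. These comparisons all share the 6 control libraries and come from a fit of all 18 libraries, whose CPM values differ slightly from those above. Against model, the difference between replicate sets did not itself differ for any gene (0 of 19513, 0.0%) in edgeR at an adjusted p of 0.05. At an unadjusted p under 0.05 there were 2120 genes, DESeq2 called 219, a fit of the 12 libraries of the 2 groups called 10, and the fit without control 3 called 13. Against intervene, 3238 genes (16.6%) differed, 1518 with a more positive and 1720 with a more negative difference in the controls. That number was 2111 without control 4 and 2030 without control 5. The control differences that enter both tests are those on which the division was selected, so these counts are no independent support for it.

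Tcf7l2 in model was at 53.6, 144 and 72.6 CPM in replicates 1 to 3 and 8.02, 10.5 and 4.79 CPM in replicates 4 to 6, and in intervene at 96.2, 91.4 and 60.6 CPM and 48.6, 32.8 and 36.7 CPM. The model libraries numbered 4 to 6 were therefore also low, and the intervene libraries only moderately so. Its set difference was −4.49 in control, −3.53 in model and −1.07 in intervene, and control differed from intervene by −3.41 ± 0.48 (edgeR adjusted p = 0.00102) and from model by −0.96 ± 0.48 (edgeR adjusted p = 0.482). Agt in model was at 119, 283 and 307 CPM and 52.5, 46.5 and 22.9 CPM, and in intervene at 260.4, 124 and 292 CPM and 274, 105 and 116 CPM, where the sets overlapped. For Agt the control difference minus the intervene difference was −5.10 ± 0.72 (edgeR adjusted p = 0.0012), and against model it was −3.01 ± 0.70 (edgeR adjusted p = 0.195, DESeq2 0.00398). Slc17a7 in model was at 861, 435 and 417 CPM and 1255, 1186 and 1091 CPM, and in intervene at 447, 698 and 278 CPM and 512, 727 and 1004 CPM. Its control difference was not past the threshold against either group, at 2.08 ± 0.90 against intervene (edgeR adjusted p = 0.135). Without control 3 that value was 3.54 and passed (edgeR adjusted p = 0.00335).

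Several regional lists had set differences in the order control, model, intervene. The counts of genes differing between control and intervene, here and in the next paragraph, are to be set beside 16.6% over all genes. Habenula genes had median set differences of −2.50 in control, −2.21 in model and 0.05 in intervene, and 16 of 22 differed between control and intervene. Thalamic relay genes had −1.28, −0.87 and 0.11, with 17 of 30 differing. Ependymal genes had −2.67, −1.69 and 0.37, with 18 of 20 differing, and hypothalamic genes −4.85, −1.03 and 0.51, with 20 of 30 differing. Myelin genes had −0.9, −0.8 and −0.27, with 14 of 26 differing. In edgeR no gene of these 5 lists differed between control and model. Shox2 in model was at 11.7, 28.8 and 23.7 CPM and 0.224, 0.771 and 0.21 CPM and in intervene at 21.6, 17.8 and 13.5 CPM and 19.4, 11.6 and 15.8 CPM, so the fall near 0 was present in the model libraries and absent in the intervene libraries. Ntng1 in intervene was at 36.5, 41.2 and 37.6 CPM and 33.1, 30.3 and 29.8 CPM, and the control difference minus the intervene difference was −2.03 ± 0.19 (edgeR adjusted p = 5.94e-05).

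Some other lists and genes did not follow that order. Hcrt in intervene was at 1.92, 0 and 82.7 CPM and 149.8, 0.134 and 0.137 CPM, so single libraries of both sets carried this hypothalamic transcript there, and the difference from control did not pass (edgeR adjusted p = 0.0599). Midbrain and hindbrain genes had medians of −6.0, −4.09 and −4.6, with 1 of 24 differing between control and intervene. Striatal genes had medians of 0.16, 2.12 and 1.55, with 2 of 20 differing. Choroid plexus genes (−2.91, −3.71 and −0.62) and hippocampal genes (−0.83, −1.0 and −0.42) did not follow the order either. Nor did meningeal genes (−0.7, −1.11 and −1.51) or upper layer genes (0.53, 0.47 and 0.56). Clock genes had 0.67, 0.27 and 0.43, with 7 of 17 differing. Pan-pallial genes, with positive medians, did shrink in that order, at 1.36, 0.74 and 0.66. Of these, 5 of 28 differed, a share not far from the 16.6% over all genes. Deep layer genes (0.44, 0.26 and 0.07) and potassium channel genes (0.57, 0.32 and 0.06) did so too.

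**Figure D5:**
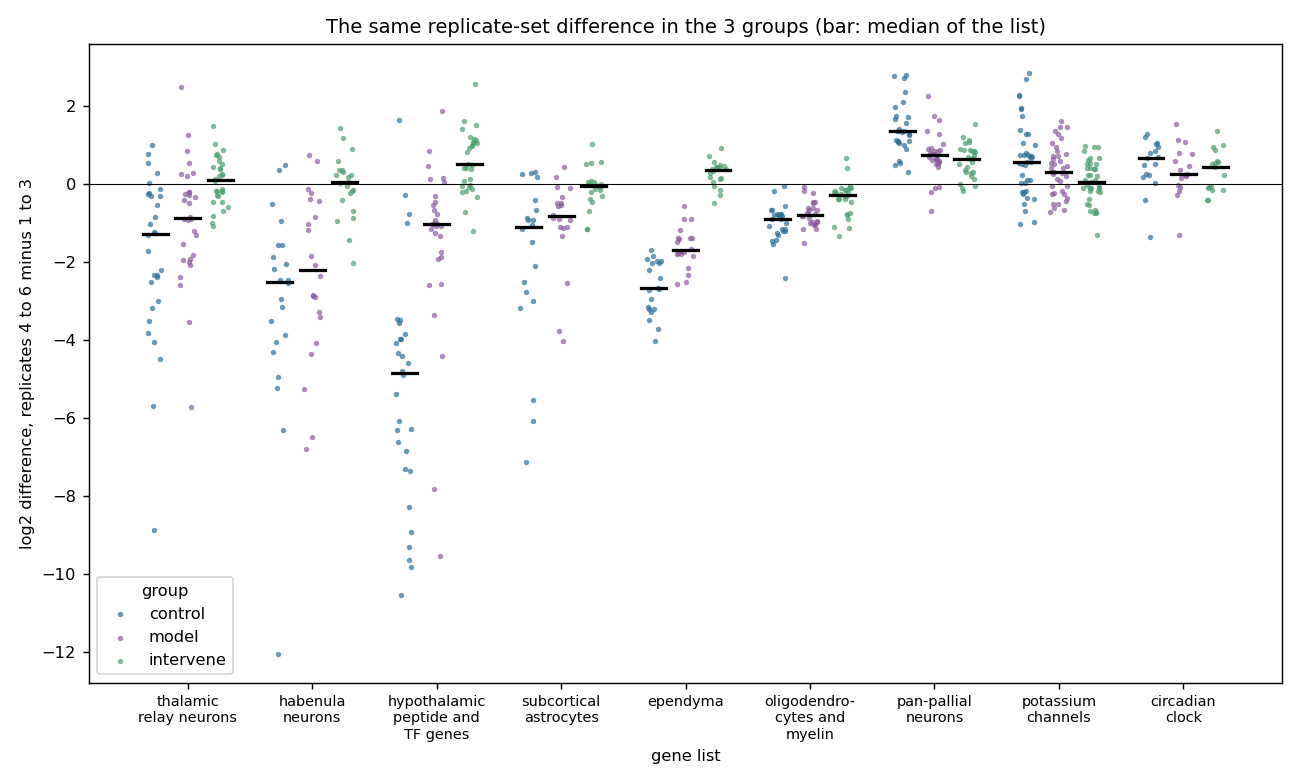
Each point is 1 gene of a list (horizontal axis), at its log2 difference of replicates 4 to 6 minus replicates 1 to 3 (vertical axis) in control (blue), model (purple) or intervene (green), and the black bar is the list's median. Habenula genes have medians of −2.50, −2.21 and 0.05 in control, model and intervene, and pan-pallial genes 1.36, 0.74 and 0.66.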

How the data were processed

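The authors deposited 2 tables over 50559 genes and 18 libraries, 1 of raw read counts per gene and 1 of FPKM values. Reads were aligned with HISAT2 and counted with featureCounts on GRCm39, per the submitters' processing notes, and no source used here gives the strandedness. Each FPKM the authors deposited equals the count divided by gene length and column total, which was checked on 18117 of 18117 genes counted in all libraries (tolerance 1e-06). Counts were used for all tests and FPKM only for set means and 1 alternative.

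Groups came from the labels. The members and the 36 gene lists (714 genes, 681 tested) were chosen with earlier results of these data known. In R 4.3.3, edgeR 4.0.16 was run with filterByExpr, TMM scaling and robust quasi-likelihood fits on the 6 controls (17916 genes), and on all 18 libraries as 6 cell means for the tests between groups (19513 genes), with p-values adjusted by Benjamini-Hochberg over all genes at 0.05. Depth was 28481225 to 118461420 counts a control, and 3 counts over a set correspond to 0.0167 CPM (controls 1 to 3) or 0.0256 CPM (controls 4 to 6). These limits cover counting error only. The scripts were tested on simulated data. Alternatives used DESeq2 1.42.0, limma 3.58.1 (voom, and trend on log2(FPKM + 1)), other scalings and filters, thinning, and each control left out.

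Genes named are the 3 markers, the 15 largest differences each way (mean CPM not under 5), in each list the 6 members of lowest p and those at or under 3 counts in a library of 1 set, the 10 genes of largest spread within each set (mean CPM of at least 20), and the 10 most significant tests between groups. Other members were named after their values were seen. Some genes that these rules pick are not reported here, and list counts include them. E-boxes were read from RefSeq promoters of GRCm38.p6, and no coordinates were moved between builds.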

Additional observations from a re-analysis of the deposited data

Results flagged for a closer look

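Over 17 values looked at in the 6 controls, 3 had an extreme library whose gap to its neighbour, as a share of the whole range, was above 0.625, the limit for 6 libraries. Chance puts about 1 in 20 unselected values past that limit. The 17 values include the 10 genes picked for the largest spread within controls 1 to 3, Ttr and Penk among them. The rate of 1 in 20 does not apply to those genes. Control 1 was the extreme in each case, with a gap share of 0.684 for total counts, 0.899 for Ttr and 0.659 for Penk.

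The difference between replicates 4 to 6 and replicates 1 to 3 itself differed between control and intervene, by the interaction test in edgeR, for 3238 genes. Among the marker genes, control minus intervene was −3.41 for Tcf7l2 and −5.1 for Agt on the log2 scale. The tests of lowest p gave more negative control differences for Ntng1 (−2.03), Shox2 (−8.69), Kcnj5 (−4.54), Ccdc190 (−1.4) and Nhlh2 (−4.73), and more positive ones for Esam (1.6), Ltk (2.0), D430041D05Rik (1.45) and Dpysl4 (1.22). The control side of each is the difference on which the division of replicates was selected.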

How the results depend on the processing

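Of the 349 list members called in controls 4 to 6 against 1 to 3, 0 changed sign in any alternative, and the number no longer called ran from 0 with DESeq2 to 92 without control 5 and 235 when a fold above 2 was required. That requirement (glmTreat) left 248 genes higher and 446 lower, so that 35.7% of the calls were higher, against 47.3% of the original ones and 44.9% to 49% in the other alternatives. Leaving out 1 control gave 1700 to 2930 genes higher and 1984 to 3215 lower. The median of all genes stayed between −0.05 and −0.001. The test against model called 0 to 13 genes without 1 control, 10 in the 12 libraries of the 2 groups and 219 with DESeq2, and the test against intervene called 2030 to 3117 without 1 control. Signs turned for genes not called, among them Pde10a and Penk. Pde10a ran from −0.113 without control 2 and −0.065 without control 3 to 2.028 without control 1, and Penk from −0.953 without control 3 to 0.945 without control 1, with 0.029 in limma-voom. The cause was not tested. No paired analysis was possible for controls 4 to 6 against 1 to 3 because the sets share no replicate number. Across groups, same-numbered libraries deviated together in few cases (12 pairs of libraries, correlations −0.277 to 0.226, 2 above 0.1, own number best in 4), so the number was not taken as a pairing, and with a replicate block the tests called 0 genes against model and 2951 against intervene. Depth limits the lowest genes, since a few counts separate their libraries.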
